A study of Mus musculus with 2 samples.

Results

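The immediate early genes described here are 37 of the 31053 features in the gene list of the deposited matrices, taken by gene symbol: the AP-1 genes Fos, Fosb, Fosl1, Fosl2, Jun, Junb and Jund, with Atf3, Maff and Mafk, and genes known to be switched on by the same stimuli. All 37 were present in both libraries, and in GENCODE M21 (GRCm38, the assembly also called mm10) none overlapped another gene on its own strand. Fos lies at chr12:85473890-85477273 on the plus strand, and Jun (chr4:95049034-95052222) and Junb (chr8:84974484-84978718) lie on the minus strand. The study made 2 single-cell RNA libraries of hair follicle stem cells from mouse skin with the 10x Chromium 3′ chemistry, version 3. The mice were wild type, of the mixed strain C57BL/6;CD1 and at postnatal day 32, with their follicles in anagen, when hair grows. Cells were sorted by flow cytometry for the surface protein CD34 and for H2BGFP, a green fluorescent histone under the promoter of keratin 14, so the animals carried that transgene. Both libraries belong to a single group with no second condition, and nothing in the labels says whether they came from separate animals. The p-values below come from fits that give each library its own level. They measure only how far differences varied between these libraries, which may be technical, and for cycling cells also between states. The fits draw each gene's variance towards that of other genes, so a p-value does not measure that gene's own spread alone.

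Immediate early genes are transcribed within minutes of a stimulus from factors already present in the cell, chiefly serum response factor with its ternary complex partners and the CREB family, acting downstream of the MAP kinases. FOS and JUN proteins pair through their leucine zippers to form AP-1, which binds DNA in the next wave of genes, while other members shut the response down: ZFP36 and BTG proteins hasten the decay of messenger RNA, DUSP proteins remove phosphate from MAP kinases, and IκBα (Nfkbia) and SOCS3 restrain NF-κB and STAT signalling. In skin, AP-1 is known for control of keratinocyte growth, wounding responses and differentiation. Many of these transcripts are also known to rise while a tissue is taken apart into single cells. How the skin was dissociated, and for how long, is not given in the sources used here, both libraries went through the sort, and the part of handling in the levels below was not tested.

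The promoters of 5 members that hold the motif TGACG are shown, followed by those of Jun and Zfp36, which also moved with the set but hold none. Each line gives the 250 bases before the start of the gene in RefSeq (build GRCm38.p6), 5′ to 3′ on the strand of the gene. Capitals mark TGACG or its reverse complement CGTCA, the core of the site bound by CREB and ATF proteins.
Fos (chr12:85473640-85473889, plus strand): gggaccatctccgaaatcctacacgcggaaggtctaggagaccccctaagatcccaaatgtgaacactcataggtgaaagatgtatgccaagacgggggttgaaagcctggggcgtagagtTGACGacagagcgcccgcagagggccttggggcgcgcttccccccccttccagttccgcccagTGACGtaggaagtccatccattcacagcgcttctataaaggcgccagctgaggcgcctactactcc
Fosb (chr7:19310046-19310295, minus strand): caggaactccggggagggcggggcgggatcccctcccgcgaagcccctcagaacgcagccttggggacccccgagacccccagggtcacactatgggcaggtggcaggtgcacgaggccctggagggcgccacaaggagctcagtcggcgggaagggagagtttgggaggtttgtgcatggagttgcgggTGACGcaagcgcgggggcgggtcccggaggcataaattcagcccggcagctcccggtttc
Junb (chr8:84978749-84978998, minus strand): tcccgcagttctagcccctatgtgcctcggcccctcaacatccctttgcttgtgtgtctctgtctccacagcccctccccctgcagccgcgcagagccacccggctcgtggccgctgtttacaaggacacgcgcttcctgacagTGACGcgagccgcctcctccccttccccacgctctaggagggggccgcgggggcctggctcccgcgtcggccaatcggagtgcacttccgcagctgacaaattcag
Nr4a1 (chr15:101266596-101266845, plus strand): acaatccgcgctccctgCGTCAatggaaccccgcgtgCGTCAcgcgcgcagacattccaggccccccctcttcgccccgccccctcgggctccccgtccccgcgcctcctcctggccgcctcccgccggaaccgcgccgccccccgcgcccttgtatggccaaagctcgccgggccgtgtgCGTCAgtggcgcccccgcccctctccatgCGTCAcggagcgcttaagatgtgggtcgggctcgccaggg
Dusp1 (chr17:26508473-26508722, minus strand): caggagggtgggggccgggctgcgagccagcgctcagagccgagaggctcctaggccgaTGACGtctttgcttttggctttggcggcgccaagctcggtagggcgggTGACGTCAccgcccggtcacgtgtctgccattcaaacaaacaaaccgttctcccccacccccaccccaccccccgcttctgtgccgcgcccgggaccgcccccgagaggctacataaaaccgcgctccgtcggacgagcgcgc
Jun (chr4:95052223-95052472, minus strand): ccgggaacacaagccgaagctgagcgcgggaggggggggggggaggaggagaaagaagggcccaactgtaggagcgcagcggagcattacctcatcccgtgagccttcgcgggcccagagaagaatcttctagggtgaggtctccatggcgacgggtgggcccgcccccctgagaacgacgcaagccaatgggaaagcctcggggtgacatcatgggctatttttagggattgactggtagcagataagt
Zfp36 (chr7:28379229-28379478, minus strand): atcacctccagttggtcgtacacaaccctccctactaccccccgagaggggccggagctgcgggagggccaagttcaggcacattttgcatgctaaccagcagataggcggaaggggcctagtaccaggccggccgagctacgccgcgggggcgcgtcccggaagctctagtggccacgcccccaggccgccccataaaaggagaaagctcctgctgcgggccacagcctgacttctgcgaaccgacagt
The Fos promoter held TGACG at 129 and 66 bases before the start, Fosb at 60 and Junb at 106. Nr4a1, which encodes the orphan nuclear receptor NUR77, held 4 such matches, all on the other strand. Dusp1, which encodes a phosphatase of MAP kinases, held 3, of which a pair overlapped in the palindrome TGACGTCA. RefSeq promoter sequences could be matched for 30 of the 37 members. With both strands searched, TGACG stood in the promoter of 15 of these 30 and was absent from that of Jun, Zfp36, Jund, Klf6 and Rhob among others, against 19.8% of 27025 genes with a promoter of the same length. The palindrome TGACGTCA was found in 3 of the 30 (Btg2, Dusp1 and Maff), against 1.77% of genes. The AP-1 site TGACTCA was found in 0 of the 30, against 5.16%, and the CArG box of serum response factor in 2, Egr2 and Zfp36, against 1.62%. The members' windows had a median GC content of 64.6%, against 52.4% for all windows, and the part of base composition in these shares was not tested. A match describes the letters only and is no measure of binding.

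Replicate 1 held 6592 cell barcodes and 52344178 UMIs (unique molecular identifiers, 1 per captured RNA molecule), and replicate 2 held 5080 barcodes and 38678103 UMIs. Barcodes were kept if 1000 genes or more were detected and mitochondrial UMIs made up no more than 10%, which left 3918 and 3041 cells with medians of 9955 and 9797 UMIs. The libraries shared 11 barcodes. Follicle states were gated on marker genes that include no member and are named here by those markers, as they are gates and not proven cell types. Keratin 14 was measured in every follicle gate. Cd34, the surface marker of the sort, ranged from 2.18 CPM (UMI counts scaled to a common library total) in the inner root sheath gate to 406 CPM in the Krt24 Grem1 gate, both in replicate 2. Gates for fibroblast, immune, endothelial and melanocyte markers took 136 and 111 cells, which were left out of every comparison among follicle cells. The Krt24 Grem1 gate held 44 cells in replicate 1 and 226 in replicate 2, so the libraries did not hold the follicle states in equal shares.

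The 37 genes together gave 2.35% of all UMIs in the kept cells of replicate 1 and 2.02% in replicate 2. Among the AP-1 genes, Fos reached 3620 and 3539 CPM in the 2 libraries and Jun 3465 and 3331 CPM, which made them the 41st and 48th most abundant genes of replicate 1. Since each molecule is counted once at its 3′ end, these levels are not scaled by gene length. Junb stood at 1773 and 1362 CPM and Jund at 1328 and 1069 CPM. Fosb was lower, at 556 and 712 CPM. The FRA proteins' genes were scarce, with Fosl2 at 86.7 and 58.5 CPM and Fosl1 at 48.4 and 37.7 CPM. Atf3, a bZIP repressor that pairs with JUN, reached 1589 and 1657 CPM. The small MAF genes, whose proteins lack a transactivation domain, were at 86.2 and 59.3 CPM for Maff and 23.8 and 20.02 CPM for Mafk.

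Egr1 stood highest of the zinc finger factors, at 1447 and 1174 CPM, far above Egr3 at 103 and 70.2 CPM and Egr2 at 65.7 and 44.1 CPM. In the Klf family, Klf6 (475 and 501 CPM) and Klf4 (441 and 481 CPM) were at like levels, and Klf2 was at 29.4 and 61.6 CPM. Of the Nr4a orphan receptors, Nr4a1 reached 381 and 270 CPM, whereas Nr4a2 and Nr4a3 stayed at or under 20.1 CPM. The response genes Ier3, Ier2 and Ier5 were at 1239, 1013 and 198 CPM in replicate 1 and at 834, 804 and 123 CPM in replicate 2. Among genes for messenger RNA decay, Btg2 reached 1239 and 821 CPM, while Zfp36, Zfp36l1 and Btg1 lay between 343 and 530 CPM in both libraries. Dusp1 was at 373 and 238 CPM, and Dusp2, a phosphatase gene best known from lymphocytes, was the scarcest member at 9.79 and 3.30 CPM. Nfkbia was at 979 and 987 CPM. In all, 8 members had a mean over both libraries of at least 1000 CPM, 16 lay between 100 and 1000 CPM, and 13 were lower. Replicate 1 had the higher level for 30 members and replicate 2 for 7, with a median log2 difference of 0.50. Fosb, Atf3, Klf2, Klf4, Klf6, Nfkbia and Gadd45g were the members higher in replicate 2. With 1 group and no second condition, these differences between libraries have no test.

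**Figure D1:**
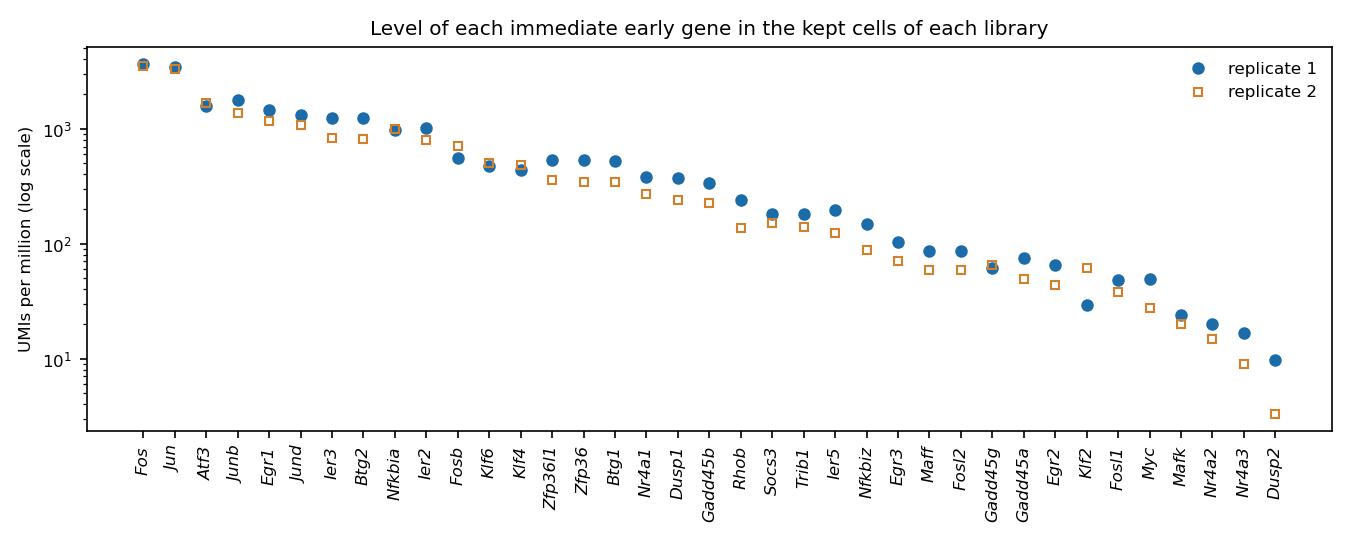
Level of each of the 37 genes in CPM (log axis), filled circles for replicate 1 and open squares for replicate 2, ordered by mean level. Fos and Jun sit highest in both libraries, at 3331 or more, and Dusp2 is lowest at 9.79 and 3.30.

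At a fixed depth of 5000 UMIs per cell, reached by random thinning and leaving out 197 and 189 shallower cells, most keratinocytes held the abundant members. In the 3592 and 2742 keratinocytes so thinned, at least 1 Jun UMI was seen in 94.5% (exact 95% interval 93.7 to 95.2) and 94.4% (93.5 to 95.2). Fos was seen in 86.6% (85.4 to 87.7) and 87.6% (86.3 to 88.8) of them. For Fosl1 the shares were 13.5% (12.4 to 14.7) and 11.1% (9.97 to 12.4). Such intervals cover counting error only. Free RNA in the droplets can put UMIs into cells that do not express a gene, and cells of other types at the same depth serve as a gauge. In 53 and 39 cells of the fibroblast gate, Jun was seen in 67.9% and 84.6% and Fos in 62.3% and 69.2%, with means of 6.15 and 8.54 Fos UMIs per cell, against 19.2 and 19.5 in keratinocytes. Fibroblasts can express these genes themselves, so their values do not give the free RNA alone. Fosl1 was seen in 15.1% and 12.8% of the fibroblast gate, so its share in keratinocytes was not above this level. In both libraries 20 of the 37 members, Jund, Nfkbia, Fosb, Dusp1 and Klf4 among them, had a higher mean in the fibroblast gate than in keratinocytes. Nfkbia was at 10.3 and 8.90 UMIs per cell against 4.67 and 4.57, and Klf4 at 5.79 and 5.72 UMIs per cell against 2.18 and 2.27. Dusp2 was seen in 2.84% and 0.438% of keratinocytes and in 20% and 35.7% of the 10 and 14 cells of the immune gate.

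The members varied from cell to cell far more than most genes did. The Pearson residual variance, which is near 1 for a gene that varies only by counting at equal depth, had a median of 3.45 over the 37 members in replicate 1 and 2.31 in replicate 2, against 1.05 and 1.06 for all genes. It passed 2 for 27 members in replicate 1, where 3.54% of 9680 genes did, and for 24 members in replicate 2, where 3.37% of 9802 did. Fos had the highest value of the set, 24.4 and 18.3, which ranked 3 and 8 among all genes of the 2 libraries. Its median was 11 UMIs per cell in replicate 1, with a 95th percentile of 63 and a maximum of 234, and in replicate 2 these values were 14, 59 and 174. Jun followed with residual variances of 15.4 and 13.4, then Atf3 with 14.9 and 11.8. Egr1 (8.88 and 6.03), Junb (8.66 and 6.04), Ier2 (8.32 and 5.62), Klf4 (8.16 and 5.97) and Btg2 (7.81 and 6.12) came next, in an order that differed between the libraries. Mafk, at 1.05 and 1.26, lay near the level of counting alone, with means of only 0.109 and 0.0970 UMIs per cell. The genes compared had a mean of at least 0.02 UMIs per cell and were not matched to the members by level. Members were kept whatever their mean. Dusp2 in replicate 2, with a mean of 0.00802, lay under that limit and is counted among the 24, at a residual variance of 2.13. The part of level in these variances was not tested. These values describe cells of 2 libraries and carry no test.

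Most of the spread of the most abundant members, taken as a sum, lay within the gated states and little of it between them. The sum of Fos, Jun, Junb and Egr1, called the core here because these genes stood for 43.9% and 46.5% of all member UMIs, had a median of 39 UMIs per cell in replicate 1 and 40.5 in replicate 2. From the 5th to the 95th percentile it ran from 3 to 153 and from 2 to 133, with maxima of 381 and 312. The core was at most 5 UMIs in 11.4% and 12.0% of keratinocytes and at least 100 in 16.9% and 14.0%. It was 0 in 23 and 39 cells. The 9 groups of keratinocytes (8 gates and the ungated cells) accounted for 2.66% and 2.54% of the variance of log2(core + 1). The ungated cells, 1368 and 933, entered as 1 group, so differences between any states among them counted as spread within a group. The Gdf10 Nppc gate had medians of 49.5 and 57 core UMIs, with 5th to 95th percentiles of 6 to 171 and 3 to 144. In the Edn2 Dio3 gate the medians were 48 and 57, and in the Fgf5 Fbln5 gate 46 and 42. The Krt24 Grem1 gate had 32.5 and 30, and the Wfdc18 Pthlh gate 25 and 38. In the ungated cells the medians were 42 and 40. These ranges overlapped almost wholly. The inner root sheath gate was lowest, with medians of 9 and 14 core UMIs in 52 and 43 cells. Its cells also had more UMIs (medians 21142 and 19086 over all kept cells of the gate), and 83.6% and 93.2% of them were cycling. It held under 20 non-cycling cells in each library and so entered no test between states.

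**Figure D2:**
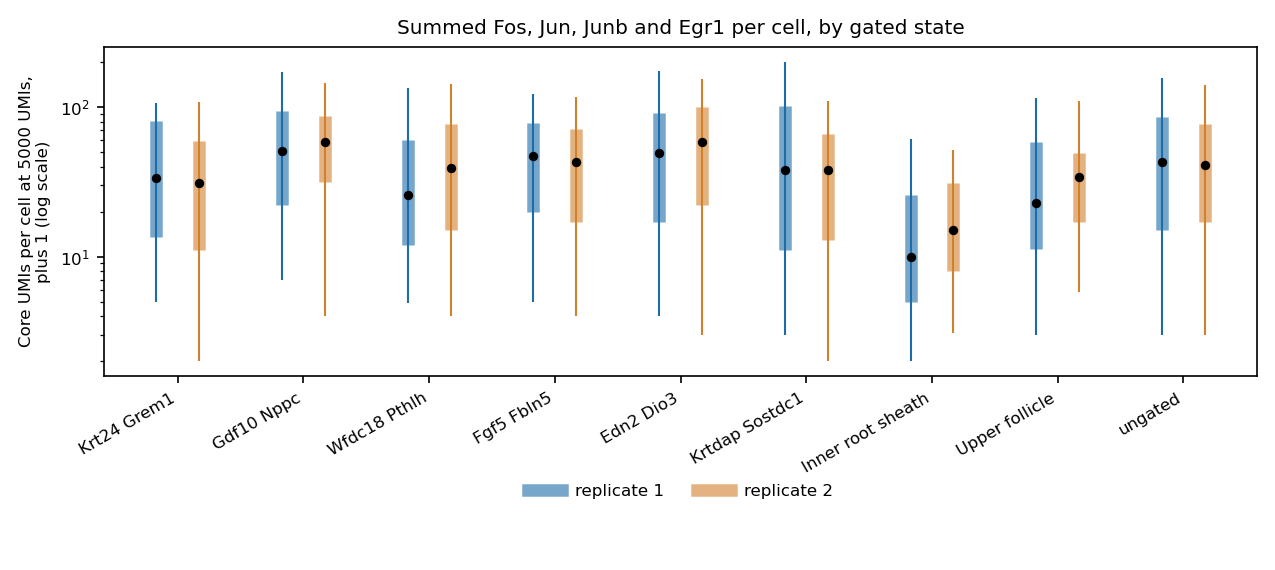
Summed Fos, Jun, Junb and Egr1 UMIs per cell at 5000 UMIs, plus 1, on a log axis, for each gate and library. Black points are medians, thick bars the middle 50% of cells and thin lines the 5th to 95th percentiles. Within each gate the cells spread over more than 10-fold, and the inner root sheath gate has the lowest medians, 9 and 14 UMIs before 1 is added.

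Within states, the genes with the highest levels rose and fell together in single cells. Correlations were taken between Pearson residuals at 5000 UMIs, centred within each state, over 3592 and 2742 cells of 1 library each. They describe cells that share a library, and carry no p. The ungated cells, 1368 and 933 of these, were centred as 1 group, so states among them were not held fixed. Fos and Egr1 had the highest r of the 666 pairs, 0.73 in replicate 1 and 0.69 in replicate 2. Fos with Jun gave 0.69 in both, and Junb with Egr1 0.68 and 0.62. Ier2, an early response gene outside the core, was nearest to Junb, with 0.69 and 0.61. Fosb was nearest to Atf3 (0.60 and 0.52), as were Klf4 (0.48 and 0.44), Klf6 (0.47 and 0.41) and Jund (0.50 and 0.52). Ier3 and Nfkbia, both NF-κB targets, were nearest to each other, with 0.51 and 0.44. Of the 666 pairs, 18 reached 0.5 in both libraries, 192 reached 0.2 in both, and 188 stayed under 0.1 in both. The median pair had r of 0.16 and 0.13.

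**Figure D3:**
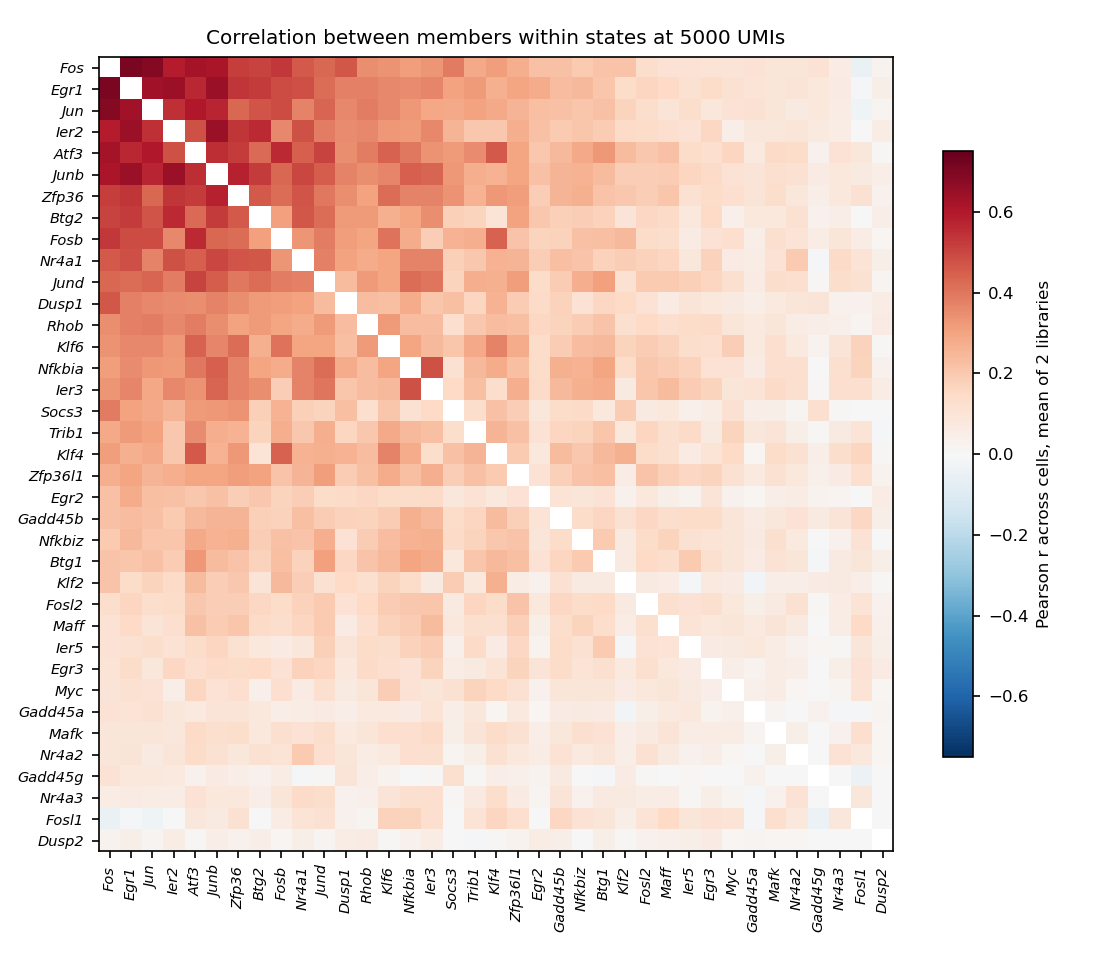
Pearson correlation between members across cells within states, mean of the 2 libraries, with genes ordered by their correlation with the core. The block of high values at the top left runs from Fos to Nr4a1, and the pale rows at the bottom are members such as Gadd45g, Nr4a3, Fosl1 and Dusp2.

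Correlation with the core, counted without the gene itself, differed widely between members. Of the 32 members outside the core with a value, 20 reached r of 0.2 in both libraries, against 0.594% of 9435 genes, and 22 were among the 100 genes nearest to the core. The nearest were Ier2 (0.72 and 0.67), Atf3 (0.72 and 0.65), Zfp36 (0.62 and 0.56), Btg2 (0.64 and 0.53) and Fosb (0.59 and 0.55). Nr4a1 (0.56 and 0.48), Jund (0.51 and 0.50), Dusp1 (0.51 and 0.42) and Rhob (0.48 and 0.37), which encodes a small GTPase, followed. At the other end, Nr4a3 gave 0.07 in both libraries, Gadd45g 0.15 and 0.05, Nr4a2 0.08 and 0.13 and Mafk 0.10 and 0.13. Fosl1, which encodes FRA-1, gave -0.03 and -0.01 and ranked 5241st of all genes. The members named at this end were all scarce, at 65.5 CPM or less in both libraries. The part of level in these values was not tested. The order did not follow level exactly, as Klf2 (0.23 and 0.18), at 29.4 and 61.6 CPM, stood above Gadd45g, at 62.0 and 65.5 CPM. Among genes that are no members, Id1 (0.59 and 0.49) and Id3 (0.53 and 0.41), targets of BMP signalling that inhibit helix-loop-helix factors, were nearest to the core. H3f3b, Zfp36l2, Slc38a2, Id2, Ppp1r15a, Hbegf and Sgk1 were also near, with mean r from 0.33 to 0.41. After the core was regressed out, 12 of the 528 pairs of the other members still reached 0.2 in both libraries. Ier3 with Nfkbia (0.37 and 0.32), Atf3 with Klf4 (0.36 and 0.31) and Fosb with Klf4 (0.34 and 0.31) were the highest.

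Cells with a high core also held more of nearly every other member. The 25% of cells with the highest core were set against the 25% with the lowest, within each gate and library at 5000 UMIs. Both classes thus held the same mix of gates. Ungated cells, 342 and 233 of each class, were taken as 1 group, so states among them were not held fixed. The classes comprised 894 cells each in replicate 1 and 682 each in replicate 2. Their median core UMIs were 113 against 6 and 103.5 against 6. The classes are ranges of a continuous sum, and 274 and 194 cells lay within 2 UMIs of the lower limit. The core genes themselves chose the classes, so their values are given as description: Fos was at 9690 and 9114 CPM in the high class and at 243 and 325 CPM in the low class. Of the 33 other members, 32 were higher and 0 lower at an adjusted p under 0.05 (edgeR quasi-likelihood test, two-sided, Benjamini-Hochberg over 10795 genes), where 7.68% of all genes were called higher and 3.06% lower. At an unadjusted p under 0.05 the number called was the same 32 and 0 were lower. DESeq2 called 29 higher and 0 lower, where it called 343 of 10795 genes in either direction. The fit had 4 sums and 1 residual degree of freedom, so its SEs and p-values lean on the variance of other genes. Id3, for example, differed by 2.81 and 1.84 on the log2 scale in the 2 libraries, with an SE of 0.16. Without the library term 16 members were higher, where 59 of 10795 genes were called in either direction. The median log2 difference in the main fit was 2.07 for the 33 other members and -0.01 for all genes.

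Atf3 had the largest difference of the members outside the core. It was at 3804 and 3533 CPM in the high class and at 190 and 211 CPM in the low class, a log2 difference of 4.34 (SE 0.07, edgeR adjusted p = 5.44e-12). Zfp36, whose product binds AU-rich messages and leads to their decay, was at 1192 and 735 CPM against 85.5 and 56.3 CPM (log2 3.91, SE 0.07). Nr4a1 rose from 55.5 and 45.5 CPM to 818 and 530 CPM (log2 3.89, SE 0.09), and Dusp1 from 56.8 and 44.0 CPM to 784 and 479 CPM (log2 3.79, SE 0.09). Each of these had no overlap between the classes in the 2 libraries. Klf2, a scarce member, rose from 5.15 and 6.74 CPM to 67.3 and 87.4 CPM (log2 3.84, SE 0.16). Fosb followed with a log2 difference of 3.52, Ier2 with 3.28, Socs3 with 2.98 and Btg2 with 2.97.

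The remaining members rose less. Rhob (log2 2.69), Egr2 (2.57), Trib1 (2.57), which encodes a pseudokinase, Klf6 (2.45), Klf4 (2.37), Nfkbiz (2.24), Nfkbia (2.14) and Ier3 (2.07) lay between 2 and 3. Jund, known as the more steadily expressed JUN gene, was at 2078 and 1750 CPM against 647 and 524 CPM, a log2 difference of 1.86 (SE 0.05). Btg1 rose by 1.14 on the log2 scale, Egr3 and Gadd45a by 1.07 each and Ier5 by 0.89, the smallest of those called. Gadd45b (1.73), Fosl2 (1.58), Myc (1.46), Zfp36l1 (1.42), Maff (1.40) and Gadd45g (1.27) lay between these. The low Nr4a2, Nr4a3 and Mafk were called higher too, with log2 differences of 1.77, 1.58 and 1.78. Dusp2 was called at a log2 difference of 1.58 (adjusted p = 0.042), on 11.4 and 2.64 CPM against 5.15 and 0 CPM, and its libraries overlap between the classes. Fosl1 was the exception among the 33. It was at 33.6 and 28.7 CPM in the high class and 44.5 and 26.1 CPM in the low class, with a log2 difference of -0.04 (SE 0.15, edgeR adjusted p = 0.90) and opposite signs in the 2 libraries.

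Between the extremes the levels climbed through the intermediate cells. When cells were divided by core into 4 equal groups within each state, mean Atf3 in replicate 1 was 0.951, 4.44, 9.43 and 19.0 UMIs per cell from the lowest to the highest group. In replicate 2 it was 1.06, 5.65, 9.76 and 17.7. Ier2 went from 1.25 to 11.7 and from 1.13 to 9.20 UMIs per cell. Btg1 rose only from 1.73 to 3.54 and from 1.21 to 2.30. Fosl1 was 0.223, 0.268, 0.209 and 0.168 in replicate 1 and 0.130, 0.213, 0.165 and 0.144 in replicate 2, highest in the second group of both. Depth before thinning had medians of 9492 and 9280.5 UMIs in the highest group against 9648.5 and 9899.5 in the lowest. It was higher between these, at 10868 and 10377 in the second group and 10561.5 and 10479 in the third. Mitochondrial shares were 6.43% and 4.45% in the highest group against 6.14% and 4.50% in the lowest. The share of cells with a high doublet score was 7.83% and 6.60% in the highest group and 2.80% and 2.93% in the lowest. It was 8.44% and 5.69% in the second group and peaked in the third, at 11.2% and 9.52%. The count of members called higher was 32 with the cells of high doublet score removed, where 1710 of 10678 genes were called in either direction.

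**Figure D4:**
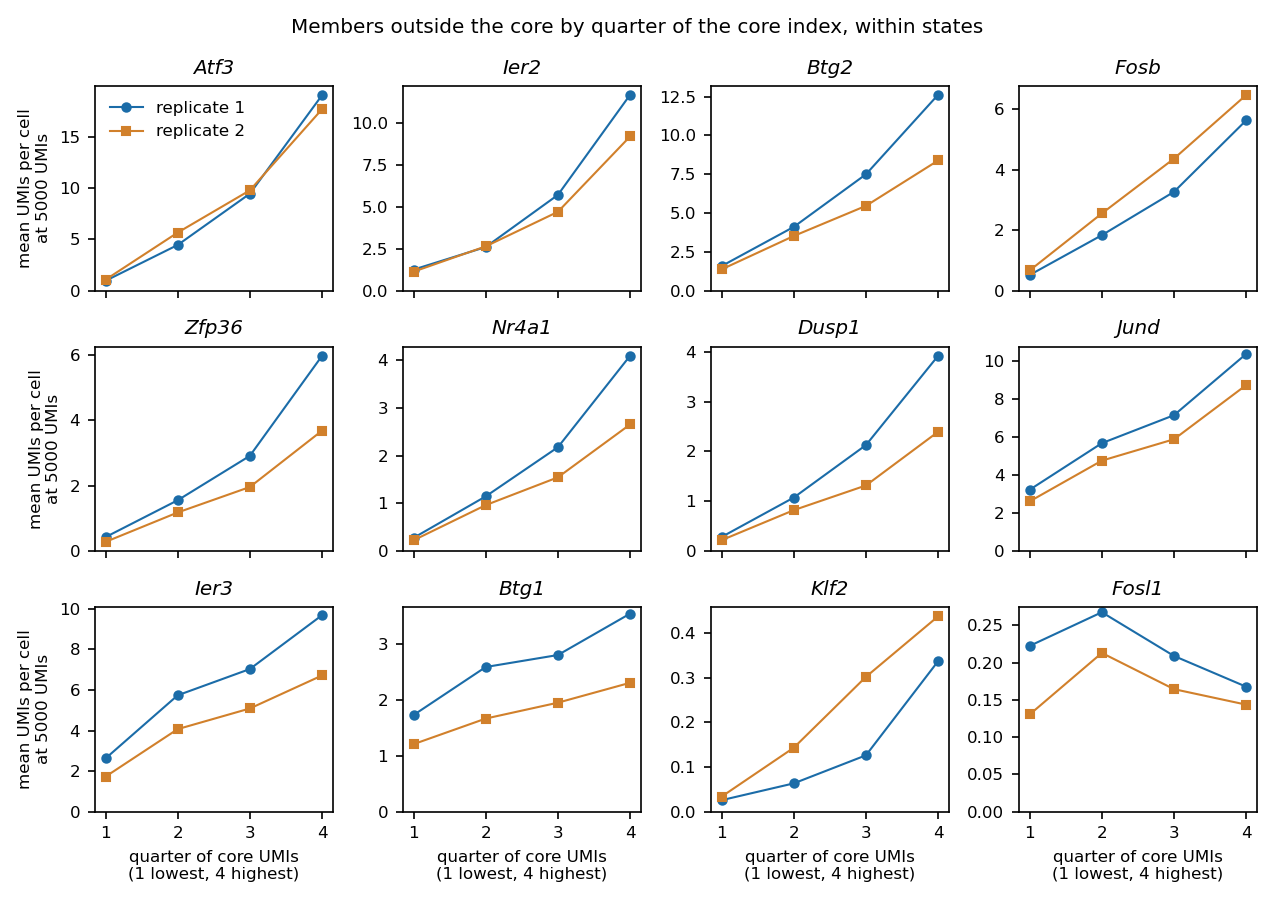
Mean UMIs per cell at 5000 UMIs of 12 members outside the core, for cells divided by core UMIs into 4 equal groups within states; circles are replicate 1 and squares replicate 2, and each vertical axis has its own scale from 0. Atf3 climbs from about 1 to 19.0 and 17.7, whereas Fosl1 does not rise.

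A second index of Ier2, Zfp36, Btg2 and Dusp1, which shares no gene with the core, gave a like picture. These genes ranked 4, 7, 8 and 14 in correlation with the core in the same cells. The index thus largely restates that correlation and is no separate support. All 29 members in neither index were called higher in the top 25% of cells by the second index, where 9.76% of 10787 genes were. Here the core genes did not themselves choose the classes. Fos was higher by 3.55 on the log2 scale (SE 0.09, edgeR adjusted p = 1.68e-16), Egr1 by 3.09, Junb by 2.98 and Jun by 2.91. Fosl1 was called with this index, at a log2 difference of 0.82 (SE 0.16, adjusted p = 0.00096), so its place depends on the genes that define the classes.

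Other genes of early responses moved with the core as well. All 26 genes of a list of early response genes outside the set were called higher in the high class, with a median log2 difference of 1.91, among them Id1 (3.01), Arc (2.94), Irf1 (2.77) and Cyr61 (2.53). Of 16 genes on a heat shock list, whose products answer to misfolded protein, 12 were higher and 0 lower, with a median of 0.68. Hspa1a, an inducible HSP70 gene, was at 426 and 273 CPM against 74.5 and 71.3 CPM (log2 2.41, SE 0.12), and Dnajb1, a co-chaperone gene, was higher by 1.97. Hspd1 and Hspe1, for the mitochondrial chaperonin, were not called, at -0.08 and -0.01. The summed heat shock UMIs correlated with the core across cells within states at 0.44 and 0.47. Among regulators and feedback genes of the SRF and ERK pathway, 8 of 18 were higher and 0 lower, led by Spry4 (2.49) and Dusp6 (1.74), which are inhibitors of the pathway. Of 11 NF-κB genes tested, 3 were higher, Tnfaip3 and Icam1 among them (1.67 and 1.55), and 2 were lower, the chemokine genes Cxcl1 (-1.16) and Cxcl2 (-1.80). Cxcl2 was lower only in replicate 1, at 2.68 against 16.3 CPM, with 2.05 against 1.76 CPM in replicate 2. Of 13 tested genes for bZIP partners, 4 were higher, led by Ddit3 (2.10) and Atf4 (1.01), factors of the integrated stress response. Of 5 genes for messenger RNA decay, Zfp36l2 and Tob2 were higher, both by 1.73.

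Of all genes that are no members and had a mean of at least 20 CPM, the 10 with the largest changes were all increases, and 5 of them (Id1, Irf1, Cyr61, Csrnp1 and Ppp1r15a) are on the early response list. Rasd1, which encodes a RAS-related GTPase, was at 56.2 and 35.5 CPM against 3.36 and 6.74 CPM (log2 3.42, SE 0.27). Bbc3, which encodes the cell death protein PUMA, was higher by 2.74, Bambi, a decoy receptor gene of the BMP and TGF-β pathway, by 2.71, and Matn4 by 2.68. Ppp1r15a (2.48), Gm26532 (2.49) and Csrnp1, at 168 and 104 CPM against 29.5 and 24.0 CPM, were among them too. With at most 5% mitochondrial UMIs, 30 of 32 members tested were higher, where 304 of 9204 genes were called in either direction. The part of handling stress in this pattern was not tested.

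Between states, individual members differed more clearly than the core did. Non-cycling cells were summed per state and library, and each of 7 states was set against the mean of the other 6 (edgeR, two-sided, Benjamini-Hochberg over 10339 genes; all 37 members tested). There were 44 calls of a member as higher and 39 as lower, and 35 members were called in at least 1 state, where 45.5% of all genes were. Over all genes there were 6189 calls as higher and 3903 as lower. Gadd45b and Dusp2 were called in none. The range of a member between its highest and lowest state was narrowest for Jun, at 0.72 on the log2 scale, and Junb, at 0.84. It was widest for Klf4 and Fosl1, at 4.48 each.

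The Gdf10 Nppc gate held more of these transcripts than the other states. Of the 37 members, 20 were higher and 1 lower, where 8.21% and 1.65% of all genes were called higher and lower, and the members' median log2 difference was 0.59 against 0.02 for all genes. Fosl1 was at 156 and 64.9 CPM against 46.0 and 42.0 CPM in the other states (log2 1.93, SE 0.34, edgeR adjusted p = 0.0016). Maff was at 174 and 167 CPM against 76.2 and 44.6 CPM (log2 1.68, SE 0.21, adjusted p = 6.92e-05). Trib1 (1.35), Klf4 (1.29), Socs3 (1.24), Myc (1.15) and Zfp36 (0.999) were higher as well. In the core, Egr1 was higher by 0.71, Junb by 0.59 and Fos by 0.49, while Jun was not called. Gadd45g, a stress sensor gene, was the member that fell, from 90.6 and 81.7 CPM to 57.6 and 29.3 CPM (log2 -0.66, edgeR adjusted p = 0.023). That call was lost with high doublet scores removed (adjusted p = 0.056), with thinning (0.051), at the 5% mitochondrial limit (0.63) and without the library term (0.16). In this gate 8 of 16 heat shock genes were also higher and 0 lower, as were 11 of the 26 other early response genes and 5 of 10 NF-κB genes. Its cells had 6.26% and 4.84% mitochondrial UMIs, within the range of the other gates in replicate 1 and above it in replicate 2, and the part of this difference was not tested. Thinning every cell to 5000 UMIs gave 21 higher members, a stricter gate 31, DESeq2 16, and the model without the library term 7. With at most 5% mitochondrial UMIs, 27 members were higher and 0 lower in this gate. The share of all genes called in either direction moved as well. It was 9.87% in the main fit, and 9.05%, 14.1%, 7.15%, 4.57% and 12.6% in these settings in turn.

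The Fgf5 Fbln5 gate stood at the other end, with 2 members higher and 17 lower, where 13.5% and 11.5% of all genes were called higher and lower. The members' median log2 difference was -0.53, against 0.02 for all genes. Klf4, a factor of keratinocyte differentiation, was at 111 and 100.5 CPM against 889 and 712 CPM in the other states, a log2 difference of -2.71 (SE 0.21, edgeR adjusted p = 9.11e-08). Fosl1 fell by 2.55 on the log2 scale, from 70.3 and 51.7 CPM to 9.91 and 6.83 CPM. Myc, the growth factor-induced transcription factor, fell by 1.88, Klf2 by 1.60, Btg1 and Nfkbiz by 1.17 each, and Fosb, Mafk and Atf3 by 1.04, 1.03 and 1.02. Gadd45g (1.09) and Btg2 (0.56) were the members that rose. None of the core genes was called in this gate, so the fall touched Atf3, Fosb and Jund (-0.72) without a call for Fos, Jun, Junb or Egr1.

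The Edn2 Dio3 gate had 4 members higher and 8 lower, where 9.73% and 6.84% of all genes were called. Fos was at 5151 and 5699 CPM against 3711 and 3464 CPM (log2 0.56, SE 0.13, edgeR adjusted p = 0.0056), and Jun was higher by 0.34, Btg2 by 0.80 and Gadd45a by 0.64. Fosb went the other way, at 416 and 530 CPM against 819 and 926 CPM (log2 -0.88, SE 0.20). Klf4 (-2.29), Fosl1 (-2.44), Myc (-1.57), Klf2 (-1.34), Klf6 (-1.25), Nr4a3 (-1.22) and Btg1 (-0.64) were lower too. Members of the same family thus moved in opposite directions in 1 gate.

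The Krt24 Grem1 gate had 6 members higher and 3 lower, where 8.67% and 6.51% of all genes were called. Klf4 was at 1590 and 1153 CPM against 642 and 537 CPM (log2 1.77, SE 0.15). Klf2 (1.69), Gadd45g (1.48), Nr4a2 (0.96), Fosb (0.93) and Dusp1 (0.87) were higher, and Ier5 (-1.75), Egr2 (-1.44) and Gadd45a (-1.39) lower. In replicate 1 these values rest on 40 non-cycling cells. The Wfdc18 Pthlh gate had 5 higher and 6 lower, where 10.3% and 7.78% of all genes were called. There Ier5 was at 281 and 253 CPM against 137 and 92.1 CPM (log2 1.41), and Btg1 (1.28), Nfkbiz (0.87), Egr2 (0.82) and Rhob (0.67) were higher. Gadd45g (-1.76), Klf2 (-1.75), Nr4a2 (-1.41), Nr4a1 (-1.17), Dusp1 (-1.15) and Fos (-0.45) were lower.

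The Krtdap Sostdc1 gate had 2 members higher, Klf2 (1.31) and Klf4 (1.25), and 2 lower, Btg2 (-0.86) and Gadd45a (-0.81), where 3.98% and 1.92% of all genes were called. In the upper follicle gate 5 members were higher and 2 lower, where 5.40% and 1.57% of all genes were called. The values of this gate rest on 34 and 45 non-cycling cells. Klf2 (1.66), Mafk (1.37), Egr3 (1.06) and Nfkbia (0.71) were higher, and Egr1 (-0.59) and Fos (-0.48) lower. Fosl1 was called higher there as well (1.91), but it was at 35.7 against 66.0 CPM in replicate 1 and at 146 against 28.5 CPM in replicate 2, so that its direction came from replicate 2. Across all 7 states Klf4 ran from 111 and 100.5 CPM (Fgf5 Fbln5) through 130 and 136 (Edn2 Dio3), 561 and 512 (Wfdc18 Pthlh), 576 and 719 (upper follicle), 1246 and 809 (Gdf10 Nppc) and 1229 and 944 (Krtdap Sostdc1) to 1590 and 1153 (Krt24 Grem1). Neighbours in this order overlapped between libraries from the Gdf10 Nppc gate upward. Without the library term, the counts of higher and lower members were 1 and 11 in the Fgf5 Fbln5 gate, 1 and 4 in Edn2 Dio3, 2 and 4 in Wfdc18 Pthlh, 4 and 3 in Krt24 Grem1, 1 and 0 in Krtdap Sostdc1 and 3 and 0 in the upper follicle gate. In the same order of gates, 16.8%, 9.47%, 11.8%, 10.9%, 2.67% and 5.08% of all genes were then called in either direction. With the library term these shares were 25%, 16.6%, 18.1%, 15.2%, 5.91% and 6.96%. With at most 5% mitochondrial UMIs, 11 members were higher in the Krtdap Sostdc1 gate and 1 was higher in the Edn2 Dio3 gate. The shares of all genes called there were 12.4% and 11.3%.

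**Figure D5:**
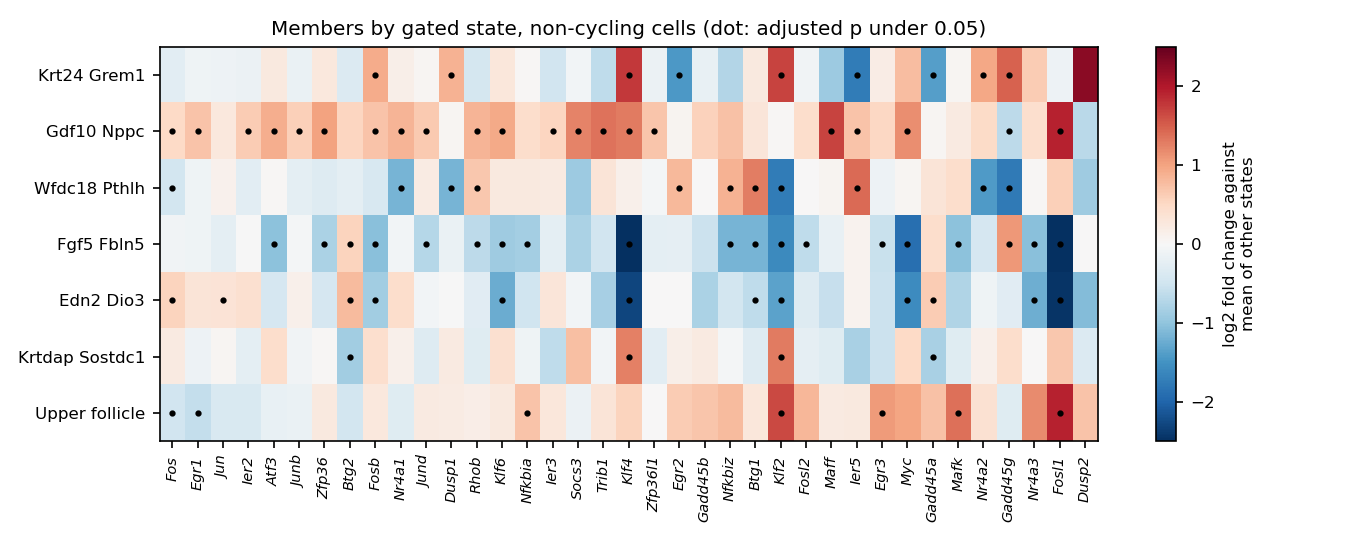
Log2 difference of each member between non-cycling cells of a gate and the mean of the other 6, red for higher and blue for lower; the colours saturate at 2.5 in either direction, and dots mark an edgeR adjusted p under 0.05. The Gdf10 Nppc row is mostly red with 20 higher calls, and the Fgf5 Fbln5 row mostly blue with 17 lower calls.

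Cycling cells held slightly less of the members than non-cycling cells of the same state. A cell was classed as cycling when at least 3 of 12 cell cycle markers were detected, and 5 states had enough cells of both classes. Of the 37 members, 28 were lower and 0 higher in cycling cells (edgeR, two-sided, Benjamini-Hochberg over 10644 genes), where 15.4% of all genes were called lower and 14.7% higher. None was higher at an unadjusted p under 0.05. DESeq2 called 26 lower and 0 higher, where it called 2482 of 10644 genes in either direction. Without the library term 13 were lower, where 1863 of 10086 genes were called in either direction. The differences in the main fit were small, with a median of -0.32 on the log2 scale against -0.05 for all genes. All 37 estimates were negative. Klf4 was at 388 and 351 CPM in cycling cells and at 655 and 500.4 CPM in non-cycling cells (log2 -0.57, SE 0.08, adjusted p = 4.72e-06). Myc (-0.53), Nfkbiz (-0.49), Fosl1 (-0.48), Btg1 (-0.47), Zfp36 (-0.45), Mafk (-0.45) and Atf3 (-0.42) followed. Fos was at 3815 and 3906 CPM against 4298 and 4175 CPM (log2 -0.20, SE 0.04), and Egr1 was lower by 0.18 on the same scale. Ier5, Egr2, Egr3, Gadd45a, Fosl2, Klf2, Nr4a2, Nr4a3 and Dusp2 were not called. Of the 26 other early response genes 19 were lower and 0 higher, and of the 16 heat shock genes 6 were lower and 2 higher. The share of cycling cells was 34.7% and 32.8% among the core-high cells and 40.9% and 42.5% among the core-low cells. With every cell thinned to 5000 UMIs for both the class and the sums, a setting chosen after seeing the data, 29 of 36 members were lower. Of 8079 genes tested in that setting, 2014 were called in either direction.

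Pooled in bins that also took in cells above the 10% limit, cells with more mitochondrial RNA, often read as stressed or leaky, held somewhat more of the core. With levels as CPM of non-mitochondrial UMIs, the core stood at 9973 in cells of replicate 1 with under 5% mitochondrial UMIs, 11601 in those with 5 to 10% and 12743 in those with 10 to 20%. In replicate 2 these values were 9825, 10599 and 10926. The order was the same in both libraries and the range was small beside that between single cells. Heat shock genes did not follow it, with 12905, 13428 and 12260 in replicate 1 and 14667, 14240 and 12764 in replicate 2. The rise from the first to the second bin lay within the 10% limit. Single keratinocytes within that limit were measured on another scale, log2(core + 1) at 5000 UMIs with mitochondrial ones included. This value had a correlation of 0.00292 and -0.0546 with the mitochondrial share. With the logarithm of total UMIs its correlation was -0.00377 and -0.0526. The bins and these correlations are not like measures, and the source of their difference was not tested.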

How the data were processed

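The deposited matrices hold UMI counts, whole numbers per gene and barcode with no normalization. Per the submitters' processing notes, the authors used Cell Ranger 3.1.0, Seurat 3.1 and mm10; the gene models are not named in the sources. The members and gene lists were chosen with earlier results of these data known. All 37 members are reported; other genes were named by list, by size of change (called, same direction in both libraries, mean of at least 20 CPM) or by correlation with the core (the 10 nearest, of which 1 is not reported here).

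Counts were thinned to 5000 UMIs without replacement (seed 1), which sets the precision of shares; Pearson residuals used theta 100. A cell entered a gate when the mean of its markers' z-scores (limit 3) was at least 0.5 and led the next by 0.25. Ungated cells counted as keratinocytes when Krt5 and Krt14 together reached 500 CPM. Classes with at least 20 cells in both libraries were summed and fitted with edgeR 4.0.16 (R 4.3.3, TMM, expression filter) with a library term, since each library gives every state; the replicate number pairs the sums because they come from 1 library. States had 14 sums and 6 residual degrees of freedom. The cycling comparison had 20 sums, with a level for each state in each library, and 9 residual degrees of freedom. DESeq2 1.42.0 was an alternative. Scrublet (scanpy 1.11.5) called 0 doublets by its automatic threshold in both libraries, so doublets were kept, and removing the highest scores (0.8% of cells for every 1000 barcodes) was an alternative. The fits and the thinning were tested on simulated data. Coordinates come from GENCODE M21 and promoters from RefSeq.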

Additional observations from a re-analysis of the deposited data

How the results depend on the processing

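With no replicate block (no library term), member calls fell from 44 to 19 higher and from 39 to 22 lower between states, from 32 to 16 higher in core-high cells, and from 28 to 13 lower in cycling cells. Calls over all genes fell too, from 1159 to 59 between core classes and from 3202 to 1863 between cycling classes. Without an expression filter, 61 calls between states were lower. The share of all genes then called in either direction ran from 4.9% in Krtdap Sostdc1 to 15.2% in Fgf5 Fbln5. The mean correlation of the 6 core pairs, 0.64, was 0.60 at 3000 UMIs and 0.68 on the log scale. It ran from 0.63 to 0.65 with each library left out in turn, the members' median residual variance from 2.31 to 3.45 and their share of UMIs from 2.02% to 2.35%. For the calls, leaving out a library leaves no test. Size factors from RLE, DESeq2, removal of high doublet scores, a 5% mitochondrial limit, a stricter gate and thinning each kept the number of calls summed over all states, and those of the other comparisons, within 1.5 times of the main count. Single states moved more in several cases. For example, a 5% limit moved higher calls from 2 to 11 in the Krtdap Sostdc1 gate and from 4 to 1 in Edn2 Dio3. It also moved them from 20 to 27 in Gdf10 Nppc. A stricter gate moved higher calls from 20 to 31 in Gdf10 Nppc and from 5 to 8 in Wfdc18 Pthlh, and lower calls from 8 to 14 in Edn2 Dio3. DESeq2 gave 2 higher calls in Wfdc18 Pthlh, and thinning gave 2 in the upper follicle gate, each against 5. The share of all genes called moved too. The 5% limit took it from 5.91% to 12.4% in Krtdap Sostdc1 and from 16.6% to 11.3% in Edn2 Dio3. The stricter gate took it from 9.87% to 14.1% in Gdf10 Nppc and from 18.1% to 21.5% in Wfdc18 Pthlh. In Wfdc18 Pthlh it was 14.5% with DESeq2. In the upper follicle gate it was 3.22% with thinning, against 6.96%. Under the 5% limit 5 states remained between which to test, and under the stricter gate the upper follicle gate dropped out. Estimates reversed in 3 cases: Dusp2 in the Krtdap Sostdc1 gate was 2.98 at the 5% limit, Fosl1 in the upper follicle gate ran from -0.28 without replicate 2 to 2.83 without replicate 1, and Fosl1 between core classes was 0.82 with the second index. The cause was not tested. Depth limits the scarce members: Dusp2 was seen in 0.438% of keratinocytes in replicate 2.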
